A study of Mus musculus with 2 samples.

Results

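The proteasome subunit genes were the entries of the deposited expression table that carry a symbol of the Psma, Psmb, Psmc, Psmd, Psme, Psmf or Psmg families, without the immunoproteasome genes Psmb8, Psmb9 and Psmb10. They came to 47 of the 29126 entries and to 45 genes, since Psma2 and Psma4 were each listed a second time at the same place in the genome. The data are 2 libraries of strand-specific mRNA-seq, 1 from Dnmt1+/+ and 1 from Dnmt1-/- mouse embryonic fibroblasts (MEFs). Dnmt1 encodes the main enzyme that maintains DNA methylation through cell division, and the comparison asks which transcripts differ in cells that have lost most of it. Per the study's text, the Dnmt1-/- cells are homozygous for a hypomorphic Dnmt1 allele, and the cells of both genotypes are null for trp53, so the absence of p53 is shared by the control. The strain is not given, the labels name neither a passage nor separate cultures, and each genotype is 1 library, so no spread between replicates exists and no test was made. Dnmt1 was at 65.2 RPKM (mapped reads scaled to transcript length and to the size of the library) in Dnmt1+/+ MEFs and 14.5 in Dnmt1-/- MEFs, in the direction of the labels. Trp53 was at 18.6 and 19.9 RPKM, values that say nothing of whether a protein is made. The 8 fibroblast markers all had some signal in both libraries but did not share a direction. Thy1 was the lowest at 4.84 and 0.129 RPKM, the latter under the 1 RPKM required of a tested gene. Past 2-fold, Col1a2 (1241 and 476 RPKM), Fn1 (664 and 235) and Thy1 were lower in Dnmt1-/- MEFs. S100a4 (290 and 1262 RPKM) was higher. The 12 measured markers of epithelial, blood, endothelial and germ cells summed to 1.66 and 5.24 RPKM, with Cd68 the highest in both at 0.596 and 3.63, while the pan-leukocyte gene Ptprc was listed at 0 in both. RPKM holds no read counts, so the depth behind each gene is unknown and no counting interval can be given.

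The proteasome is the barrel-shaped protease that degrades ubiquitin-tagged proteins in the cytosol and nucleus. Its 20S core is built of outer rings of alpha subunits, which form the gate, and inner rings of beta subunits, among which lie the proteolytic sites. A 19S particle caps the core: its ATPases unfold the substrate and thread it in, and its non-ATPase subunits bind ubiquitin chains and remove them. Other members are alternative caps (Psme1 to Psme4), an inhibitor (Psmf1) and chaperones that help to assemble the core or the 19S particle. The genes of a proteasome are commonly transcribed together, through factors that include Nfe2l1, and interferon raises a subset of them.

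The sequences around the transcription start of 5 members show the letters on which the promoter comparison turns: Psma1 and Psmc6 had the lowest changes, Psme1 and Psme2 the highest apart from a second entry of Psma2, and Psmd12, which hardly differed, holds the same pair of motifs as Psmc6. They are RefSeq windows in the build GRCm38.p6, from 250 bases before to 50 bases after an annotated start, so each covers the proximal promoter and the beginning of the first exon. Capitals mark matches on either strand to the motif TGACNNNGC (the core of the antioxidant response element, to which Nfe2l1 and Nfe2l2 bind with small Maf proteins), GAAA followed after 2 bases by another GAAA (the core of the interferon-stimulated response element), CCAAT (bound by NF-Y) or CCGGAAG (bound by ETS factors). Psma1 is at chr7:114276067-114276366 on the minus strand, Psmc6 at chr14:45329574-45329873 on the plus strand, Psmd12 at chr11:107479278-107479577 on the plus strand, Psme1 at chr14:55578244-55578543 on the plus strand and Psme2 at chr14:55591052-55591351 on the minus strand.
Psma1: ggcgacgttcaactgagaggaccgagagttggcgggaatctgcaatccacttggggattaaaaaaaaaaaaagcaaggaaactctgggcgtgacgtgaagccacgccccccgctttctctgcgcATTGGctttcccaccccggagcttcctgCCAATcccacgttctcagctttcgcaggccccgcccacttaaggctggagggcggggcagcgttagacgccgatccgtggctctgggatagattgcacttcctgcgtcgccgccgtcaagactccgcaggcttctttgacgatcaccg
Psmc6: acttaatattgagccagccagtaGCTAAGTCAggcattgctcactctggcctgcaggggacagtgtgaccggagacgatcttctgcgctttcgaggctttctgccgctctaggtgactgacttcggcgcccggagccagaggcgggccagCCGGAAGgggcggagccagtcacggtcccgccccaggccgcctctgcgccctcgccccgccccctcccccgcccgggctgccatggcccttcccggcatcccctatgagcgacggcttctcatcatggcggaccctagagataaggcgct
Psmd12: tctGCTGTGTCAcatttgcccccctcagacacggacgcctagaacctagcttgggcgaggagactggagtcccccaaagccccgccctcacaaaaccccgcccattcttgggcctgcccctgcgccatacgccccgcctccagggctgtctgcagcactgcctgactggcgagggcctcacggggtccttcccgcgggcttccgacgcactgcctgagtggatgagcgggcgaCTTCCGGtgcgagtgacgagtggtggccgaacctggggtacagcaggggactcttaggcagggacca
Psme1: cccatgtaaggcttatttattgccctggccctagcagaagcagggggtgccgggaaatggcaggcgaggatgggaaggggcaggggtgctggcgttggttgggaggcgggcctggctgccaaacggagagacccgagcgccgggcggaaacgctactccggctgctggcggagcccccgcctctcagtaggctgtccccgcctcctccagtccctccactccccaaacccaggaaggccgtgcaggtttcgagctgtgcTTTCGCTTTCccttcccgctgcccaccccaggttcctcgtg
Psme2: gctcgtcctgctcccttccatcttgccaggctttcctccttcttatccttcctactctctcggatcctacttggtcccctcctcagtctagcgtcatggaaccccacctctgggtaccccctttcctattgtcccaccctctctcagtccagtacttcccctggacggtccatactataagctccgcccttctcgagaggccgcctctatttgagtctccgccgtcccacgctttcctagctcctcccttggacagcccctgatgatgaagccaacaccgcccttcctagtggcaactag

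Most proteasome genes were among the more abundant transcripts of both libraries, and most were slightly lower in Dnmt1-/- MEFs. Of the 47 entries, 45 passed the requirement of status OK and at least 1 RPKM in one library or the other; Psma8 and Psmb11 did not. The median over the 45 entries, taken in each library separately, was 97.8 RPKM in Dnmt1+/+ and 71.6 RPKM in Dnmt1-/- MEFs. For the 11244 genes tested it was 11.3 and 10.3 RPKM. The medians of the members fall on different entries in the 2 libraries, so they are not a change of 1 gene. RPKM was lower in Dnmt1-/- MEFs for 33 of the 45 entries (73.3%) and higher for 12, where 59.6% of all genes tested were lower. On the log2(RPKM + 0.1) scale, Dnmt1-/- minus Dnmt1+/+, the median difference was -0.20 (quartiles -0.43 and 0.02), beside -0.14 for all genes tested (quartiles -0.56 and 0.27). With the median of all genes subtracted the members' median was -0.06. All genes with a mean of at least 10 RPKM over the 2 libraries had a median difference of -0.07. In these bulk libraries, fewer cells that express a gene and less RNA per cell cannot be told apart.

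A 2-fold difference was passed by 2 entries in each direction. Psma2 (its second entry) and Psme2 were more than 2-fold higher, 4.44% of the 45, where 8.47% of all genes tested were. Psma1 and Psmc6 were more than 2-fold lower, again 4.44%, where 10.9% of all genes tested were, so that 8.89% of members and 19.4% of all genes passed 2-fold. The background is narrower among genes with a mean of at least 10 RPKM. There, with the second entries of members left out, 1 of the 43 members was higher (2.33%, against 4.73% of 5938 genes). Of the 43, 2 were lower (4.65%, against 5.04%), where 9.77% of all such genes were past 2-fold in either direction. Psmc6 is near the limit. After subtraction of the all-gene median, 2 of the 45 entries were higher and 1 was lower. The background became 9.71% and 8.58% (18.3% in all). Within 1.5-fold lay 36 of the 45 entries (80.0%), against 62.2% of all genes tested. Much of this gap goes with level: among genes with a mean of at least 10 RPKM the share was 74.0%, beside 81.4% of the 43 members. Past 1.5-fold were 3 entries higher (6.67%, against 14.1% of all genes tested) and 6 lower (13.3%, against 23.7%), together 20% against 37.8%.

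**Figure D1:**
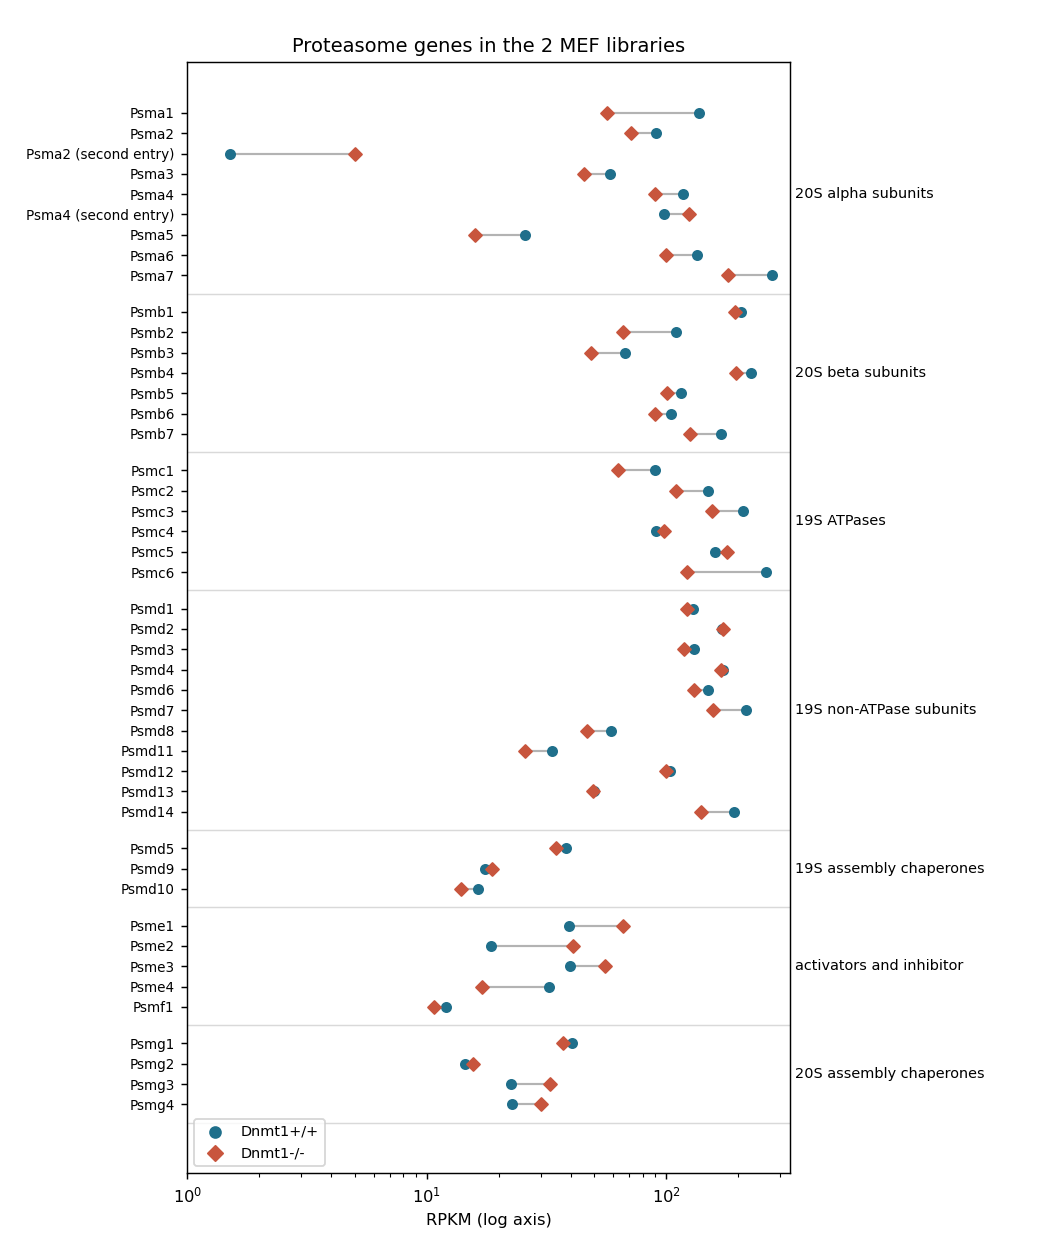
RPKM (log axis) of the 45 proteasome entries that passed, in the Dnmt1+/+ library (circles) and the Dnmt1-/- library (diamonds), joined by a line for each entry and ordered by subcomplex. Diamonds lie left of the circles for 33 entries, with the longest leftward lines at Psma1 and Psmc6 and rightward ones at Psme1, Psme2 and the second entry of Psma2.

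The alpha subunits of the 20S core were all lower in Dnmt1-/- MEFs when the second entries of Psma2 and Psma4 are left out. In their 7 first entries the median log2 difference was -0.42, and the range was from -1.27 to -0.34, so every value lay below the all-gene median. Psma1 was at 137 RPKM in Dnmt1+/+ and 56.8 in Dnmt1-/- MEFs (log2 difference -1.27), a level 2.42-fold lower, and had the lowest difference of the 45 entries. Psma7, the most abundant alpha transcript, was at 278 and 181 RPKM (-0.62), and Psma5, the least abundant, at 25.6 and 15.98 RPKM (-0.68). These 3 were the alpha genes past 1.5-fold. The remaining 4 lay between -0.42 and -0.34: Psma6 was at 134 and 100.1 RPKM, Psma4 at 117 and 89.8, Psma2 at 90.5 and 71.6, and Psma3 at 58.1 and 45.5. Psma8, which takes the place of Psma7 in proteasomes of male germ cells, was listed at 0 and at 0.0879 RPKM.

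The second entries of Psma2 and Psma4 went the other way from the first. Psma2 had 1.51 RPKM in Dnmt1+/+ and 5.002 RPKM in Dnmt1-/- MEFs in its second entry (log2 difference 1.67), and Psma4 had 97.8 and 125 RPKM (0.35). Both genes lie on the plus strand, and the first entries carry identifiers that fall among those of plus-strand genes. The identifiers of the second entries fall among those of minus-strand genes, for 8 of the 8 nearest in each case. Whether they hold antisense transcripts or reads of the gene itself was not tested. The first entry of Psma4, at 117 and 89.8 RPKM, is of like level to its second and opposite in direction. If both hold reads of the gene, Psma4 cannot be called lower. The second entries are included in the counts, shares and medians over the 45 entries, and in the alpha median of the plot of differences by subcomplex. They are left out of the values for the 7 alpha genes, the 14 core subunits, the 31 core and 19S genes and the 43 members. Without them, 1 of the 43 members was more than 2-fold higher (2.33%), 2 were more than 2-fold lower (4.65%), and 76.7% had lower RPKM in Dnmt1-/- MEFs.

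The beta subunits of the core were lower as well, in 7 of 7 genes, with a median closer to 0 than that of the alpha subunits. The median log2 difference was -0.23 (range -0.73 to -0.08). The genes of the proteolytic subunits had close differences for Psmb5 and Psmb6 and a lower one for Psmb7: Psmb5 (chymotrypsin-like activity) was at 116 and 101 RPKM (-0.19), Psmb6 (caspase-like) at 105 and 89.9 RPKM (-0.23), and Psmb7 (trypsin-like) at 169 and 126 RPKM (-0.43). Among the subunits without a proteolytic site, Psmb2 had the lowest difference, with 109 and 66.1 RPKM (-0.73), the only beta gene past 1.5-fold. Psmb4 was the most abundant at 226 and 196 RPKM (-0.20), Psmb1 followed at 205 and 194 RPKM (-0.08), and Psmb3 was the least abundant at 67.1 and 48.7 RPKM (-0.46). Psmb11, the beta subunit of the thymic cortex, was at 0.0130 and 0.0115 RPKM. Over the 14 subunits of the core, which are needed in equal number in each particle, RPKM summed to 1838 for Dnmt1+/+ and to 1382 for Dnmt1-/- MEFs, a ratio of 0.752, and the median log2 difference was -0.40.

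The 19S particle held both lower and slightly higher genes. Its 17 members summed to 2365 RPKM in Dnmt1+/+ and 1958 RPKM in Dnmt1-/- MEFs (ratio 0.828), with 14 of 17 lower and a median log2 difference of -0.20. Among the 6 ATPases, which form the ring that unfolds substrates, Psmc6 went from the highest of the group, 261 RPKM, to 122 RPKM (-1.09), a level 2.13-fold lower. Psmc1 was the lowest of the ATPases in both libraries, at 89.4 and 63.2 RPKM (-0.50). Psmc2 was at 150.0 and 110 RPKM (-0.44) and Psmc3 at 208 and 155 RPKM (-0.43), whereas Psmc4, at 90.3 and 97.6 RPKM (0.11), and Psmc5, at 160 and 179 RPKM (0.16), were slightly higher in Dnmt1-/- MEFs. The ATPases thus did not share a direction, and their median was -0.43.

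The 11 non-ATPase subunits differed little, with every gene within 1.5-fold and a median log2 difference of -0.15. The scaffold subunits Psmd1 and Psmd2 were at 130 and 122 RPKM and at 171 and 173 RPKM (0.02, the only value above 0). Psmd4, a ubiquitin receptor, was at 172 and 169 RPKM (-0.03). Psmd14, the deubiquitinase that cuts chains off the substrate, was at 191 and 139 RPKM (-0.46), and Psmd7, which pairs with it, had the highest level of the group, 215 RPKM, and 157 RPKM in Dnmt1-/- MEFs (-0.46). Psmd11, a lid subunit that braces the 19S particle against the core, had the lowest level at 33.4 and 25.6 RPKM (-0.38). The other lid subunits were Psmd3 at 131 and 118 RPKM, Psmd6 at 150.1 and 131, Psmd8 at 58.6 and 46.7, Psmd12 at 104 and 99.95, and Psmd13 at 49.8 and 49.7, with log2 differences from -0.33 to -0.0041.

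The order of levels within the proteasome was largely alike in both libraries. Over the 31 genes of the core and the 19S particle, Pearson's r between the libraries on the log2 scale was 0.932 and Spearman's rho 0.909, as descriptions across genes, which share their library and are not replicates. The same values over all genes tested were 0.823 and 0.901, over a much wider range of levels. The highest of the 31 genes was 10.8-fold above the lowest in Dnmt1+/+ and 12.3-fold above it in Dnmt1-/- MEFs, although these subunits enter the particle in equal numbers. Psma7 ranked 1 in Dnmt1+/+ and 3 in Dnmt1-/- MEFs, Psmb4 ranked 3 and 1, and Psma5 ranked 31 in both. The longest moves were those of Psma1, from 14 to 25, Psmc6, from 2 to 12, and Psmc5, from 11 to 4. Without replicates, neighbours in this order cannot be told apart.

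**Figure D2:**
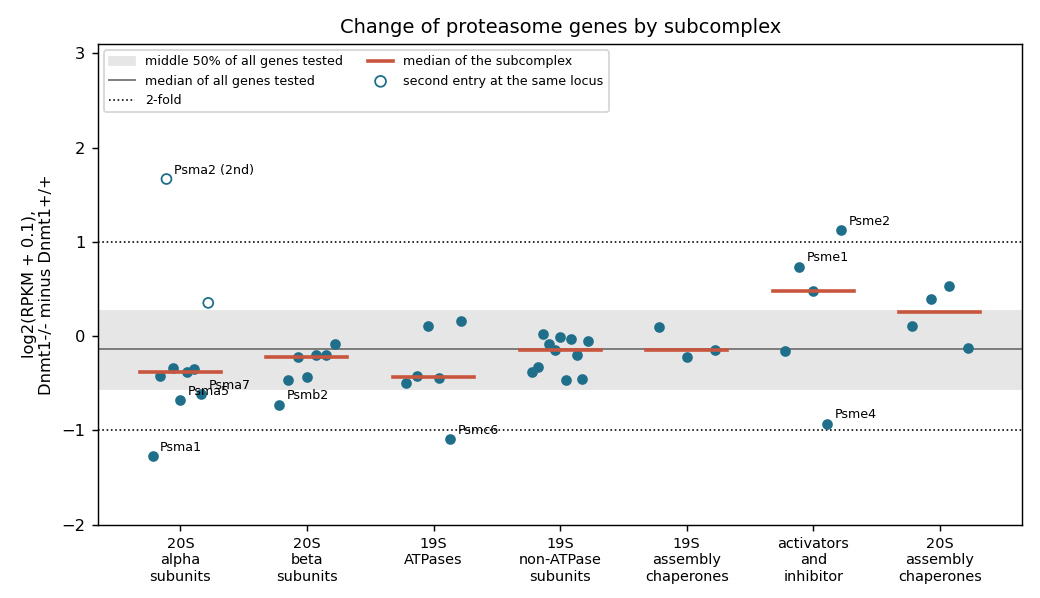
Difference in log2(RPKM + 0.1), Dnmt1-/- minus Dnmt1+/+, for each proteasome entry that passed, grouped by subcomplex; thick bars are group medians, the band is the middle 50% of all 11244 genes tested and dotted lines mark 2-fold. Core and ATPase medians (-0.38, -0.23 and -0.43, second entries counted) lie below the all-gene median of -0.14, and the medians of the activators (0.48) and of the 20S assembly chaperones (0.25) lie above it.

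The activators split. The PA28 subunits Psme1 and Psme2, which form an interferon-inducible cap that opens the core, were both higher in Dnmt1-/- MEFs: Psme1 was at 39.4 and 65.7 RPKM (0.74, 1.67-fold higher) and Psme2 at 18.6 and 40.7 RPKM (1.12, 2.19-fold higher). Psme3, which forms the nuclear PA28 cap, was at 39.8 and 55.7 RPKM (0.48). Psme4 (PA200), a large nuclear cap, was in the opposite direction, at 32.3 and 16.9 RPKM (-0.93, 1.91-fold lower). Psmf1, an inhibitor of the core, was the lowest of the group at 11.99 and 10.7 RPKM (-0.16). Summed, these 5 genes were at 142 and 190 RPKM, a ratio of 1.33. Psme1 and Psme2 are neighbours: in NCBIM37 (mm9), Psme1 lies at chr14:56196960-56200366 on the plus strand and Psme2 at chr14:56206278-56209950 on the minus strand, 5912 bp apart and facing each other. The other members within 200 kb of each other were Psmb5 with Psmb11 and Psmb4 with Psmd4. Psmb5 had a log2 difference of -0.19, Psmb4 of -0.20 and Psmd4 of -0.03, while Psmb11 was too low to be compared.

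The assembly chaperones did not follow the core. Of the 4 chaperones that build the alpha ring, Psmg3 was at 22.4 and 32.6 RPKM (0.54) and Psmg4 at 22.8 and 29.9 RPKM (0.39), Psmg2, the lowest of the 4 in both libraries, was at 14.5 and 15.6 RPKM (0.11), and Psmg1, the highest, was at 40.5 and 37.0 RPKM (-0.13). All 4 lay within 1.5-fold and above the all-gene median. The 19S chaperones had a median of -0.14: Psmd5 was at 38.3 and 34.6 RPKM, Psmd9 at 17.4 and 18.7, and Psmd10, also known as gankyrin and the X-linked member, at 16.3 and 13.9. All genes tested on X had a median of -0.39 (394 genes), beside -0.23 for Psmd10.

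The immunoproteasome genes, which are not members, replace the proteolytic beta subunits in cells exposed to interferon. Psmb8 was at 0.0550 RPKM in Dnmt1+/+ and 55.1 RPKM in Dnmt1-/- MEFs, Psmb9 at 0.102 and 3.14, and Psmb10 at 21.1 and 35.2, with log2 differences of 8.48, 4.01 and 0.73. The Dnmt1+/+ values of Psmb8 and Psmb9 are near or below the 0.1 RPKM added before the log, so the sizes of these differences depend on it, and the median of the list ran from 1.91 with 1 RPKM added to 4.95 with none. Set against the subunit each replaces, Psmb8 made up 0.0475% of the RPKM of Psmb8 and Psmb5 together in Dnmt1+/+ and 35.3% in Dnmt1-/- MEFs, Psmb10 made up 11.1% and 21.9% of its pair with Psmb7, and Psmb9 made up 0.0966% and 3.38% of its pair with Psmb6. The replaced subunits themselves had log2 differences from -0.43 to -0.19. These shares are of messenger RNA, not of particles.

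**Figure D3:**
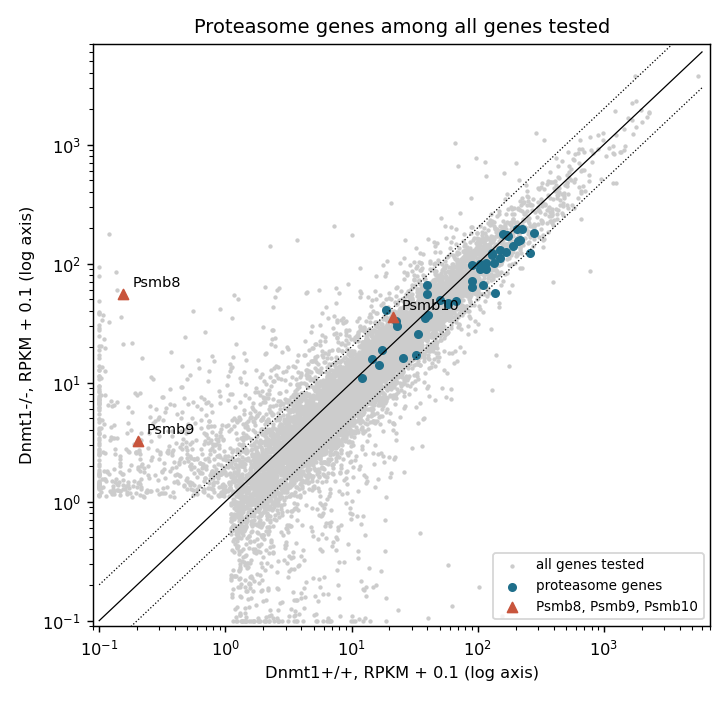
RPKM + 0.1 in Dnmt1+/+ MEFs against Dnmt1-/- MEFs (both axes log) for all 11244 genes tested (grey), the 43 proteasome genes in their first entries (circles) and the immunoproteasome genes (triangles); the solid line marks equal values and dotted lines 2-fold. The proteasome genes lie in the upper range of levels and near the diagonal, while Psmb8 and Psmb9 lie far above it.

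Genes that work with the proteasome were compared by lists, which were drawn up with earlier results of these data known. The 18 partners of the particle (receptors, shuttles, deubiquitinases and further assembly factors) had a median log2 difference of -0.10. Of these, 0 were more than 2-fold higher and 1 lower, the shuttle Ubqln2 at 37.1 and 17.4 RPKM. Of all genes tested, 8.47% were more than 2-fold higher and 10.9% lower, so a single gene past 2-fold does not set a list of this size apart. Pomp, the chaperone on which the beta rings are built, was at 78.5 and 141 RPKM (0.84), and AI314180, which holds core and 19S particle together and is known as Ecm29, was at 35.2 and 17.9 RPKM (-0.97). The small 19S subunit Shfm1 was at 304 and 281 RPKM and the receptor Adrm1 at 24.5 and 23.3 RPKM, respectively above and below the range of the 17 other 19S subunits. Of 13 regulators that passed, median -0.04, Mafk was the only one past 2-fold, at 7.98 and 25.7 RPKM (1.68); it encodes a small Maf protein. Nfe2l1, which raises proteasome genes when the particle is inhibited, was at 94.8 and 82.6 RPKM (-0.20). The gene of nuclear respiratory factor, Nrf1, has the status FAIL and is listed at 0 in both libraries, so it was not compared.

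Genes upstream of the proteasome and related complexes gave medians on both sides of 0. Their counts past 2-fold stand beside 8.47% of all genes tested higher and 10.9% lower. The 13 entries of ubiquitin supply and of p97, the ATPase that extracts ubiquitin-tagged proteins, include Ubb in 2 entries (0.77 and -0.02) and had a median of -0.16 with 0 higher and 1 lower past 2-fold: the ubiquitin-activating enzyme Uba6 was at 7.54 and 2.47 RPKM (-1.57). Vcp, which encodes p97, was at 140 and 79.6 RPKM (-0.82). The COP9 signalosome, whose architecture resembles that of the 19S lid, had a median of 0.24 over 9 genes, with Cops2 lower at 94.4 and 27.0 RPKM (-1.80). The 13 genes of eIF3, a translation factor of related architecture, had a median of -0.47 and none past 2-fold, and the 8 genes of the cytosolic chaperonin had a median of -0.06 and a range of -0.20 to 0.15. The medians of the core and 19S genes (-0.35 over 31 genes) and of eIF3 were thus both below that of all genes tested, with no test of the difference. The 2 sets were unlike in spread: 28 of the 31 genes were lower, whereas eIF3 had 8 genes lower and 5 higher.

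**Figure D4:**
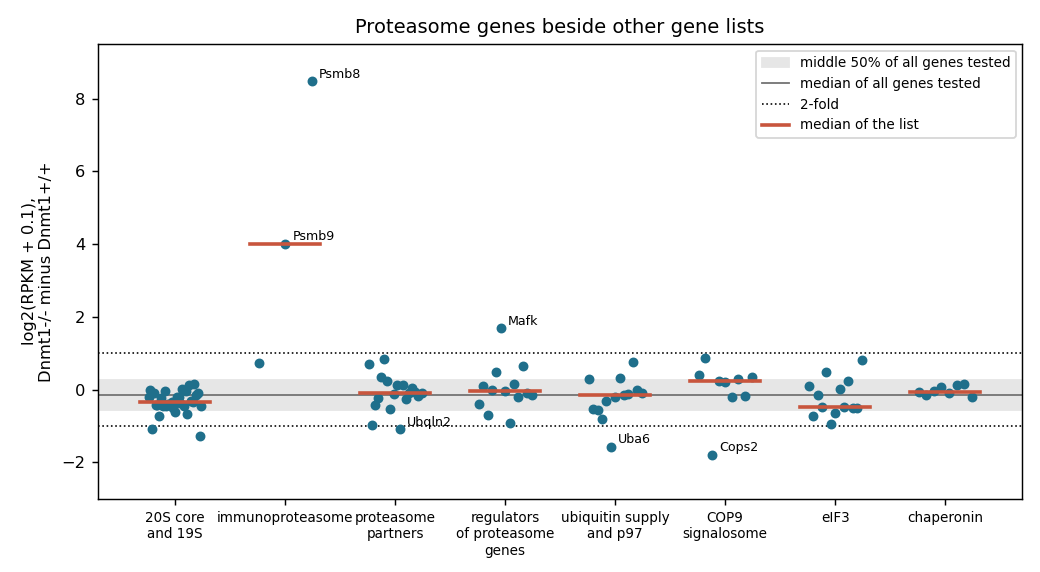
Difference in log2(RPKM + 0.1), Dnmt1-/- minus Dnmt1+/+, for the 31 genes of the 20S core and 19S particle and for the genes of 7 other lists; thick bars are list medians, the band is the middle 50% of all genes tested and dotted lines mark 2-fold. The immunoproteasome median, 4.01 here and 1.91 to 4.95 with other pseudocounts, stands above the medians of the other lists, which lie between -0.47 and 0.24.

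Many proteasome genes have near-identical copies, which bears on how reads of 50 bp were shared out. Coding sequences of the 45 genes were compared with NCBIM37: 14 genes had 30 copies elsewhere (at least 90% identity over at least 50% of the coding sequence, median identity 95.5%). For 10 genes at least 50% of their 50-base stretches recurred elsewhere with at most 2 mismatches, among them all stretches of Psma5, Psmb3, Psmb5 and Psme2. In 26 genes none recurred, among them Psma1, Psme3 and Psme4, and in Psmc6 9.19% did. Among core and 19S genes, the 9 with at least 50% repeated had a median of 89.4 RPKM in Dnmt1+/+ and 63.2 in Dnmt1-/- MEFs, against 150.0 and 126 RPKM for the 14 with none. Of the 6 lowest genes in the Dnmt1+/+ order, Psma5, Psmd11, Psma3 and Psmb3 had at least 50% repeated, while Psmd13 had 9.24% and Psmd8 12.3%.

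The places of the copies hold entries of their own. At the copies of Psma5 on chromosomes 10 and 4 lay unnamed entries with 74.9 and 47.1 RPKM and with 75.2 and 46.7 RPKM (Dnmt1+/+ first), above the 25.6 and 15.98 RPKM of Psma5 itself. The Dnmt1-/- level was 0.630 and 0.620 of the Dnmt1+/+ level there, and 0.623 of it in Psma5. At 3 copies of Psma3 the unnamed entries were at 223 and 166, 145 and 100.02, and 119 and 94.7 RPKM, again above Psma3. Over 19 such entries for 9 genes, 14 were above their own gene in Dnmt1+/+ MEFs, and 16 differed between the libraries in the same direction as their gene. RPKM of very short entries is large for few reads, so these levels are not comparable with those of whole genes. How far the low levels of such members rest on reads assigned to copies was not tested, and for these genes the level is uncertain. Their median log2 difference was -0.37 (10 genes), beside -0.15 for the 24 genes with no repeated stretch that passed. It was -0.33 for the 9 genes with some but under 50% repeated. These groups differ in subcomplex, since the 24 include the assembly chaperones and most activators, and this was not separated from repeated sequence.

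The PA28 genes have copies too. All of Psme2 recurs in a copy, Psme2b-ps, at chr11:48758901-48759620 (NCBIM37, 99.3% identity), inside an entry at 9.55 and 17.5 RPKM. For Psme1 44.1% of the stretches recur, and unnamed entries at its copy on chromosome 15 were at 307 and 347 RPKM and at 108 and 96.9 RPKM, log2 differences of 0.18 and -0.16 where Psme1 itself had 0.74. Reads of Psme1 and Psme2 and of their copies cannot be told apart here where the sequences are the same, so the values of both are uncertain. Psma1 and Psmc6 have no copy by the criteria above. Entries of other genes also overlapped members: Fam158a at Psme1 was at 4.08 and 4.47 RPKM, Ric8 and Sirt3 at Psmd13 were at 12.8 and 7.44 and at 6.18 and 2.92 RPKM, Cep76 at Psmg2 was at 3.95 and 4.71 RPKM, and Htr2b at Psmd1 was at 0.0559 and 0.109 RPKM, all below their member.

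**Figure D5:**
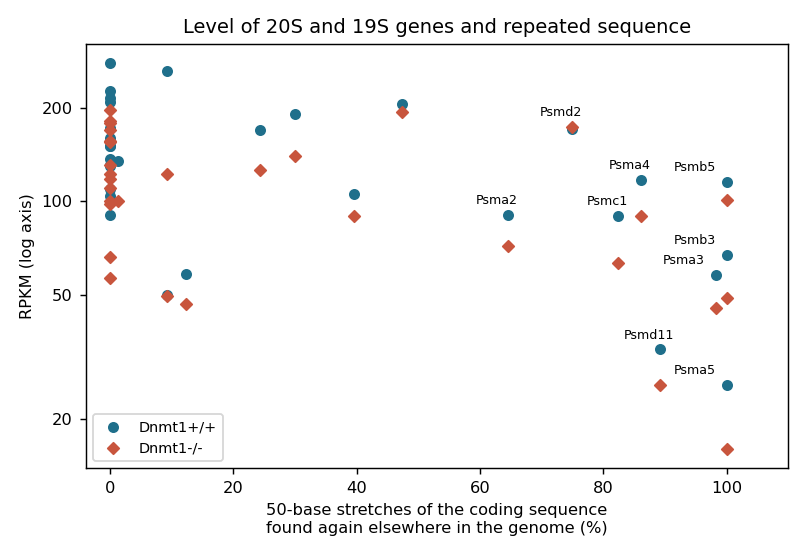
RPKM (log axis) of the 31 core and 19S genes in the Dnmt1+/+ (circles) and Dnmt1-/- (diamonds) libraries against the percentage of 50-base stretches of the coding sequence that recur elsewhere in the genome. Genes at 50% or more are named; Psma5 and Psmd11 are the lowest of all, and Psmd2 lies among the higher genes.

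The promoters of the members were mostly rich in CpG, the dinucleotide that Dnmt1 methylates. RefSeq windows were given for 37 of the 45 genes (40 windows, among 32851 for all genes); the others were Psma8, Psmb1, Psmb2, Psmb7, Psmc3, Psmd3, Psmd7 and Psmg2. The member windows had a median of 19 CpG and an observed over expected ratio of 0.772, against 7 and 0.384 for all windows, and 30 of 40 (75%) exceeded a ratio of 0.6, against 35.8% of all. The 10 windows under 0.6 included those of Psme1 (0.576) and both windows of Psme2 (0.541 and 0.456). The rest were of Psma3, Psma6, Psmb4, Psmb11, Psmd4, Psmd9 and Psmd10. Apart from Psmb11, too low to be compared, the log2 differences of these genes ran from -0.42 to 0.10. Psma6, at the low end, has another window with a ratio of 0.697. Methylation was not measured in these libraries.

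The motif CCGGAAG was in 15 of the 40 member windows (37.5%, 14 genes), against 8.86% of all windows. The motif itself holds a CpG; among CpG-rich windows it was in 14 of 30 member windows (46.7%) and in 18.7% of all 11756. The 14 genes with it had a median log2 difference of -0.16, and the 22 without it that passed had -0.21. TGACNNNGC was in 15.0% of member windows and 12.4% of all, in Psmb5, Psmb6, Psmc6, Psmd9, Psmd12 and Psme4, whose median was -0.21, beside -0.20 without it. Psmc6 and Psmd12, printed above, both hold TGACNNNGC on the reverse strand (227 and 247 bases before the start) and a CCGGAAG motif (100 and 17 bases before it), with log2 differences of -1.09 and -0.05.

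CCAAT was in 32.5% of member windows and in 37.4% of all. The 12 genes with it that passed had a median of -0.43, the 24 without it -0.14. The former include Psma1, with CCAAT motifs 126 and 98 bases before the start, and Psma2, Psma3, Psma6, Psma7 and Psme3. Psma6 has it in 1 of its 2 windows. The alpha genes Psma4 (-0.38) and Psma5 (-0.68) lack it, as do Psme1, Psme2 and the Psmg genes with a window. Motif and subcomplex are thus mixed, and their parts in this gap were not tested. Short motifs occur often by composition alone, and these medians are descriptions without a test. The interferon element, GAAA and GAAA with 2 bases between, was in 5 windows (12.5%, against 3.44% of all), those of Psmb3, Psmd4, Psmd9, Psme1 and Psmg4. Among CpG-rich windows it was in 2 of 30 member windows (6.67%), against 2.36% of all. Psme1 holds it 10 bases after the start, neither window of Psme2 has it, and the 5 genes had a median of 0.10. The palindrome to which nuclear respiratory factor binds, GCGC on either side of AT, was in the windows of Psma2 and Psmg1 (5%, against 0.971% of all). It holds CpG too, and among CpG-rich windows it was in 2 of 30 member windows (6.67%), against 2.45% of all. All motifs were searched on both strands, and no matches overlapped in the windows printed.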

How the data were processed

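Single-end strand-specific reads of 50 bp were placed on mm9 by the authors (TopHat), who then built transcripts (Cufflinks) and took their abundance from Cuffdiff; the annotation was that of mm9, and tool versions and whether counting used strand are not given in the sources used here. The deposited table gives 1 RPKM value for each entry and library, with a status, and no counts, so depth per gene is unknown. Differences are log2(RPKM + 0.1), Dnmt1-/- minus Dnmt1+/+, which understates changes of low genes. Tested genes had status OK, a symbol and at least 1 RPKM in one library or the other (11244); with 1 library per genotype, a call is a difference past 2-fold and no p-value was computed. Every member was described, with other genes named if past 2-fold or if they answer a role in the pathway (the latter chosen after their values were seen). Members and lists were chosen with earlier results of these data known. The deposited coordinates match NCBIM37; copies were sought with BLAST+ 2.17.0, tables made with Python 3.11.15, pandas 2.3.3 and numpy 2.4.6, and figures with matplotlib 3.10.9. The calculation was tested on simulated data, made from the Dnmt1+/+ values with exact changes put in and no noise. Recovery was fixed by this design, so it checks the arithmetic alone and says nothing of the calls in these data. The alternatives were other pseudocounts, filters, centring, joint entries, statuses and thresholds.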

Additional observations from a re-analysis of the deposited data

How the results depend on the processing

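Of 315 summary values recomputed under the alternatives, 295 stayed within 1.5-fold and 20 moved, and no value past 2-fold changed sign. Of 481 values of single members none moved past 1.5-fold. This says little of their stability, since filters leave a gene's own difference as it is and centring shifts each by 0.14. The second entry of Psma2 fell furthest, from 1.67 to 1.26 with a pseudocount of 1. Subtracting the median of all genes left 1 member lower (from 2), 0 partners lower and 1 COP9 gene higher, turned the medians of partners, regulators and chaperonin above 0 (0.04, 0.10 and 0.08), and turned 6 members slightly above 0 (Psmb1, Psmd1, Psmd4, Psmd12, Psmd13 and Psmg1). The all-gene median then moves by 0.14, and the members' median ran from -0.20 to -0.06 over all alternatives. A 1.5-fold threshold gave 6 members lower and 3 higher. It also gave 2 partners higher and 2 lower, 2 regulators higher and 2 lower, 1 gene of ubiquitin supply higher and 2 lower, 1 COP9 gene higher, and 1 eIF3 gene higher and 3 lower. Of all genes tested, 14.1% were higher and 23.7% lower at that threshold. The immunoproteasome median was 1.91 with a pseudocount of 1, 4.82 with 0.01, 4.95 with none, and 4.61 at a minimum of 5 RPKM, where 1 gene was higher in place of 2. These last checks were chosen after seeing the data: without the second entries 1 member was higher (Psme2), and without members of repeated sequence 0 were higher. No paired analysis was possible because each genotype has 1 library, and for the same reason no library could be left out. Levels, and differences of members with copies, are limited by how reads of 50 bp were assigned, and without counts the precision of low values such as Psma8 and Psmb11 is unknown.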
